A study of Homo sapiens with 12 samples.

Results

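Expression of 10 genes that report on and restrain ERK signalling was examined in HT-29 cells, an established human colon adenocarcinoma line with mutant APC per the labels and, as background, mutant BRAF. The genes were taken by symbol from the deposited expression table: the MAPK phosphatases DUSP4, DUSP5 and DUSP6, the Sprouty genes SPRY1, SPRY2 and SPRY4, the SPRED genes SPRED1 and SPRED2, and the ETS factors ETV4 and ETV5. All 10 were found among its 25528 rows. Cells were infected with lentivirus in every group, and 12 RNA-seq libraries fell into 4 groups of 3. In the first arm the virus carried an open reading frame, either GFP as the control or CTNNB1 (beta-catenin), and cells were harvested 2 days after infection. In the second arm it carried an inducible short hairpin RNA, with shNT1 as the control and shAPC targeting APC, and the harvest came 1 day after induction with 2 µM doxycycline. The labels do not say whether the 3 libraries of a group came from separate infections, so the tests measure the spread between these libraries, which may be technical. The arms differed in vector, harvest time and doxycycline, so each perturbed group was compared with its own control.

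ERK is the last kinase of the RAS-RAF-MEK-ERK cascade, which carries growth factor signals from receptors such as EGFR to the nucleus. Active ERK switches on its own inhibitors. DUSP proteins remove the activating phosphates from ERK, Sprouty proteins dampen receptor signalling to RAS and RAF, and SPRED proteins bring the RAS inactivator neurofibromin (NF1) to the membrane. ETV4 and ETV5 are transcription factors of the PEA3 group of the ETS family whose transcripts follow ERK activity. In cells with mutant BRAF the kinase is active without a receptor signal, and transcripts of these genes are commonly read as a measure of ERK output.

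Values are given as TPM, a unit of transcript abundance that is scaled for transcript length and to the same total in each library, so levels can be compared between genes. Differences are log2 fold changes of TPM + 1, tested with limma over all genes whose TPM averaged 1 or more. The word called marks a Benjamini-Hochberg adjusted p, taken over all genes, under 0.05. Sequencing depth cannot be read from TPM and is unknown. Between 14756 and 16186 genes had a TPM above 0, and correlations of log2(TPM + 1) within groups ran from 0.991 to 0.997. The hairpin's target, APC, went from 16.4 ± 0.803 TPM with shNT1 to 5.99 ± 0.558 TPM with shAPC (SD over 3 libraries). CTNNB1 itself was not called, with 146 ± 2.87 TPM under GFP and 160 ± 4.24 TPM under CTNNB1. The WNT targets AXIN2, LGR5, NKD1 and SP5 were called higher in both arms. Of 9 colon epithelium markers, 8 were tested, and the sum over the 9 lay between 9211 and 12894 TPM. In the CTNNB1 arm 3 of the 8 were called higher and 2 lower, and the sums did not overlap (11582 to 11732 TPM in GFP, 12801 to 12894 TPM in CTNNB1). In the shAPC arm 0 were higher and 4 lower (KRT20 at -0.61, LGALS4 at -0.61, KRT19 at -0.42 and CDH1 at -0.33), with sums of 9683 to 11325 TPM in shNT1 and 9211 to 10176 TPM in shAPC. The part of these markers in the results was not tested. CDX2, a defining intestinal factor, had a mean under 1 TPM in each group, with 0.257 TPM in GFP and 0.758 TPM in shNT1. Of 9 fibroblast, leukocyte and endothelial markers, 8 were under 1 TPM in every library. The remaining marker, CD68, averaged 27.0 TPM in GFP, 13.2 TPM in CTNNB1, 13.8 TPM in shNT1 and 7.51 TPM in shAPC, and its part in the results was not tested. In bulk RNA, fewer cells of a kind and less RNA per cell cannot be told apart.

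All 10 genes were expressed in every library. SPRED1 and SPRED2 were among the highest, SPRED1 leading the order in GFP (61.1 ± 3.13 TPM), CTNNB1 (65.8 ± 6.16 TPM) and shNT1 (68.6 ± 5.25 TPM; SD, n = 3 each). DUSP6 led in shAPC with 65.7 ± 3.68 TPM, above ETV4 (59.3 ± 1.02 TPM) with no overlap of their libraries. ETV4 and ETV5 followed closely, at 50.9 ± 2.28 and 42.1 ± 1.47 TPM in GFP. The Sprouty genes formed a lower tier, with GFP means of 16.6 TPM for SPRY4, 14.5 TPM for SPRY1 and 10.97 TPM for SPRY2. DUSP4 and DUSP5 were the lowest in GFP, at 9.47 ± 0.345 and 6.29 ± 0.590 TPM, and DUSP5 was the lowest in every group. Neighbours in the order whose libraries overlapped were ETV5 and DUSP6 in GFP, SPRED1, DUSP6, SPRED2 and ETV4 in the CTNNB1 group, SPRED1 with DUSP6 and SPRED2 with ETV4 in shNT1, and ETV4, SPRED1, SPRED2 and ETV5 in shAPC. SPRY4 and SPRY1 overlapped in CTNNB1 and in shAPC, and DUSP4 and SPRY2 overlapped in CTNNB1.

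**Figure D1:**
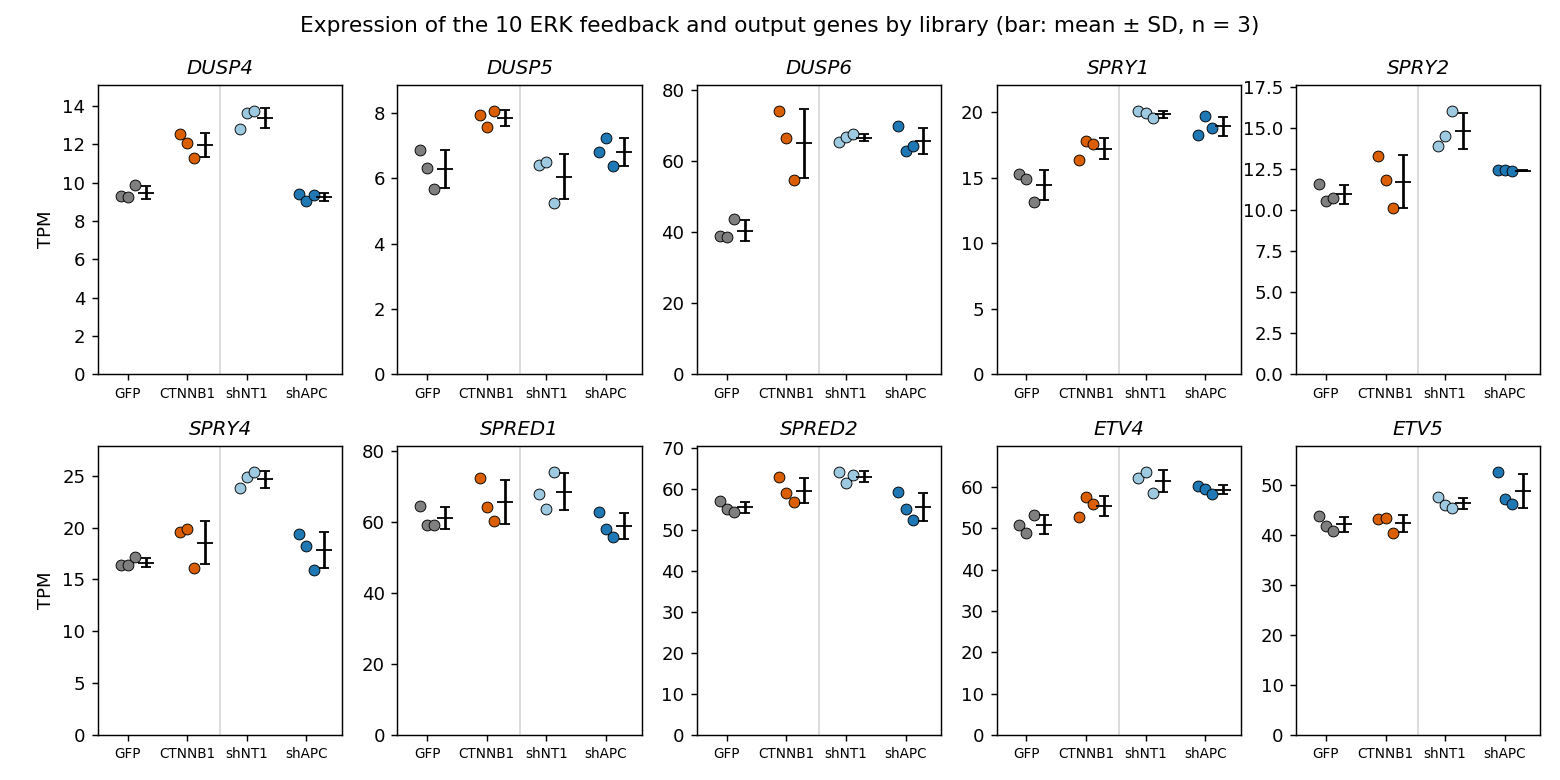
TPM of each gene in the 12 libraries, by group (points: libraries; bar: mean ± SD, n = 3; vertical axes start at 0 and differ between panels). DUSP6 was 38.6 to 43.8 TPM in GFP and at least 54.8 TPM in the other 9 libraries, and DUSP4 was higher in CTNNB1 than in GFP and lower in shAPC than in shNT1 with no overlap in either arm.

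The phosphatases among the 10 genes rose when CTNNB1 was expressed. DUSP4, DUSP5 and DUSP6 were all called higher in CTNNB1 than in GFP, and SPRY1 was the only other gene called of the 10. So 4 of 10 were called, all higher, where 16.3% of the 11624 genes tested were called higher, 7.16% lower and 23.5% in either direction. In these 4 genes every CTNNB1 library also lay above every GFP library, which held for 30.2% of all genes tested, and 43.2% did not overlap in either direction. The median log2 fold change of the 10 genes was 0.13, and that of all genes tested was 0.06. These directions depend partly on scaling. With median-ratio scaling, which moved the median of all genes to -0.01, DUSP4 and DUSP6 were called and DUSP5 and SPRY1 were not. The same held under quantile normalization and with no filter on low genes. Over all genes, 2715 of 11624 were called with median-ratio scaling (46.2% of them higher) and 2548 with quantile normalization (52.9%). With no filter 2257 of 17849 were called (69.2% higher).

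DUSP6 (chr12:89347232-89353271, minus strand, ENSG00000139318), the cytoplasmic phosphatase specific for ERK, moved most. Its TPM was 38.9, 38.6 and 43.8 in the GFP libraries and 74.1, 66.4 and 54.8 in the CTNNB1 libraries. Every CTNNB1 library lay above every GFP library, and the CTNNB1 libraries were the more spread. The mean rose from 40.4 ± 2.93 to 65.1 ± 9.72 TPM (SD, n = 3 each), a log2 fold change of 0.67 (SE 0.10, limma adjusted p = 0.00138). It stayed called when any single library was left out, with values from 0.57 to 0.78. In shNT1 DUSP6 was 65.5, 66.7 and 67.6 TPM and in shAPC 69.9, 62.9 and 64.3 TPM. The hairpin libraries thus overlapped with one another and with the CTNNB1 libraries, and the GFP libraries stood apart below. In the shAPC arm its log2 fold change was -0.02 (95% confidence interval -0.15 to 0.10, limma adjusted p = 0.815), and 0.02 under median-ratio scaling. An antisense gene is annotated over exons of DUSP6 on the opposite strand, and the labels do not state strandedness, so reads of that gene cannot be told apart from those of DUSP6.

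DUSP4 (chr8:29333064-29350668, minus strand, ENSG00000120875), a nuclear phosphatase of MAP kinases, moved in opposite directions in the arms. It was 9.28, 9.27 and 9.87 TPM in GFP and 12.5, 12.1 and 11.3 TPM in CTNNB1. With no overlap between the groups, DUSP4 was 0.31 higher on the log2 scale (SE 0.07, limma adjusted p = 0.0107). Without GFP replicate 2 it was 0.29 with a limma adjusted p of 0.0525. In the hairpin arm it was 12.8, 13.7 and 13.7 TPM in shNT1 and 9.42, 9.04 and 9.33 TPM in shAPC. Here too the groups did not overlap, with shAPC lower. The mean fell from 13.4 ± 0.524 to 9.26 ± 0.198 TPM (SD, n = 3 each), a log2 fold change of -0.49 (SE 0.07, limma adjusted p = 0.000841). Leaving out any single library of that arm kept the call, with values from -0.52 to -0.47.

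DUSP5 (chr10:110497838-110511544, plus strand, ENSG00000138166), a nuclear phosphatase specific for ERK, was the lowest of the 10 genes. It was 6.85, 6.33 and 5.68 TPM in GFP and 7.93, 7.58 and 8.05 TPM in CTNNB1, with no overlap, and was called at 0.28 on the log2 scale (SE 0.08, limma adjusted p = 0.032). That call was lost without GFP replicate 2 (0.29, limma adjusted p = 0.0903), GFP replicate 3 (0.22, 0.115), CTNNB1 replicate 2 (0.31, 0.0691) or CTNNB1 replicate 3 (0.27, 0.0641), and under median-ratio scaling (0.22, 0.0839). In shNT1 it was 6.40, 6.50 and 5.25 TPM and in shAPC 6.82, 7.24 and 6.39 TPM. These groups overlapped, and the log2 fold change was 0.15 (95% confidence interval -0.06 to 0.36, limma adjusted p = 0.278).

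With APC knocked down, SPRY2 and SPRY4 were called lower in shAPC than in shNT1, as were DUSP4 and SPRED1, which made 4 of the 10 genes. Of the 11834 genes tested in that arm, 14.9% were called lower and 22.1% in either direction. The median log2 fold change of the 10 genes was -0.12, and that of all genes tested was -0.04. Under median-ratio scaling the same 4 genes were called lower, under quantile normalization 3 (without SPRED1), and with no filter on low genes 2 (DUSP4 and SPRY4). Over all genes, 2853 of 11834 were called with median-ratio scaling (44.3% of them higher) and 2712 with quantile normalization (49.4%). With no filter 1929 of 17968 were called (38.4% higher). In 5 of the 10 genes every shAPC library lay below every shNT1 library, against 26.4% of all genes tested, and 40.9% did not overlap in either direction.

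SPRY4 (chr5:142310427-142326455, minus strand, ENSG00000187678), an inhibitor of receptor signalling to RAS and RAF, fell most among the Sprouty genes. It was 23.8, 24.9 and 25.4 TPM in shNT1 and 19.3, 18.2 and 15.9 TPM in shAPC. The groups did not overlap, and the mean fell by 27.7%, from 24.7 ± 0.814 to 17.8 ± 1.73 TPM (SD, n = 3 each). On the log2 scale the change was -0.45 (SE 0.08, limma adjusted p = 0.00249), and it stayed called without any single library (-0.51 to -0.38). In the CTNNB1 arm SPRY4 was 16.3, 16.4 and 17.2 TPM in GFP and 19.6, 19.9 and 16.1 TPM in CTNNB1. CTNNB1 replicate 3 lay below all 3 GFP libraries, and the value of 0.14 (95% confidence interval -0.04 to 0.32) was not called (limma adjusted p = 0.234). Without that library it was 0.23 (limma adjusted p = 0.0298).

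SPRY2 (chr13:80335976-80340951, minus strand, ENSG00000136158), another inhibitor of signalling from receptors to RAS, was 13.9, 14.5 and 16.0 TPM in shNT1 and 12.4 TPM in each of the 3 shAPC libraries. Here shAPC was lower with no overlap, and SPRY2 was called at -0.23 (SE 0.07, limma adjusted p = 0.0384). The call held when shNT1 replicate 1 was left out, and was lost without shNT1 replicate 2 (-0.25, limma adjusted p = 0.0759), shNT1 replicate 3 (-0.18, 0.10001), shAPC replicate 1 (-0.24, 0.0762), shAPC replicate 2 (-0.24, 0.0976) or shAPC replicate 3 (-0.23, 0.0992). It was also lost with no filter on low genes (-0.23, limma adjusted p = 0.0737) and in 1 fit of all 4 groups (-0.23, 0.0561). In the CTNNB1 arm SPRY2 was 11.6, 10.5 and 10.8 TPM in GFP and 13.3, 11.8 and 10.1 TPM in CTNNB1, with overlap (0.08, 95% confidence interval -0.12 to 0.29, limma adjusted p = 0.545).

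SPRY1 (chr4:123396795-123403760, plus strand, ENSG00000164056), the third Sprouty gene measured, followed DUSP4, DUSP5 and DUSP6 in the CTNNB1 arm. It was 15.3, 14.9 and 13.2 TPM in GFP and 16.3, 17.8 and 17.6 TPM in CTNNB1. All 3 CTNNB1 libraries lay above the GFP libraries, and SPRY1 was called at 0.24 (SE 0.07, limma adjusted p = 0.0407). This call was lost in 5 of the 6 fits that left out a library: without GFP replicate 1 (limma adjusted p = 0.0608), GFP replicate 2 (0.0864), GFP replicate 3 (0.144), CTNNB1 replicate 2 (0.128) and CTNNB1 replicate 3 (0.0772), with values from 0.18 to 0.28. Under median-ratio scaling SPRY1 was at 0.17 (limma adjusted p = 0.162). With all libraries kept, SPRY1 was called in 3 of the 8 other settings of that arm. In the hairpin arm it was 20.1, 19.9 and 19.6 TPM in shNT1 and 18.3, 19.7 and 18.8 TPM in shAPC, with overlap (-0.07, 95% confidence interval -0.20 to 0.07, limma adjusted p = 0.469).

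Start-site sequences are shown for SPRY4 and SPRY2, the Sprouty genes called lower in shAPC. They come from the RefSeq promoter table (GRCh38.p14), which held 10 windows for 6 of the 10 genes: DUSP6, SPRY1, SPRY2, SPRY4, SPRED1 and SPRED2. Each window runs from 250 bases before to 50 bases after a start site, and the 250 bases before the site are printed here. Capitals mark letters of the TCF/LEF core (CTTTGAA or CTTTGAT or CTTTGTA or CTTTGTT) or of an ETS motif (CCGGAAG or CAGGAAG), searched on both strands together with an AP-1 motif (TGANTCA) and a CRE (TGACGTCA).
SPRY4, chr5:142324248-142324497, minus strand: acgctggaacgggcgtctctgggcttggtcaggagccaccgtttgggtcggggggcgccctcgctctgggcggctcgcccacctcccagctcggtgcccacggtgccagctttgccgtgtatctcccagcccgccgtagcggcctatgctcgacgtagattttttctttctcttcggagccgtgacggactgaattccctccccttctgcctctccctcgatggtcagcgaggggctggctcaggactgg
SPRY2, chr13:80339660-80339909, minus strand: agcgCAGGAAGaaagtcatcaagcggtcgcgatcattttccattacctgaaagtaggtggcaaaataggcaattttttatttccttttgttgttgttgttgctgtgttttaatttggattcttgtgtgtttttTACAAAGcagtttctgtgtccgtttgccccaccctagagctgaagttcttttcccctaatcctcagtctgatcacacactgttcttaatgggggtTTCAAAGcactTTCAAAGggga

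The SPRY4 window held none of the 4 motifs. In GENCODE v29 the printed SPRY4 bases overlap an exon of an alternative transcript and the printed SPRY2 bases lie in an intron. The SPRY2 window shown held 3 TCF/LEF matches, starting 117, 22 and 11 bases before the start site on the opposite strand, and 1 ETS match. Of the 3 SPRY2 windows, 2 held a TCF/LEF match, and they were the only 2 of the 10 windows with one. The remaining SPRY2 window (chr13:80341077-80341376), not printed, lies outside the annotated gene and held none of the 4 motifs. Of all 35116 windows listed, 13.8% held a TCF/LEF match, 21.8% an ETS match, 7.71% an AP-1 match and 1.85% a CRE. ETS matches stood in 4 of the 10 windows, AP-1 matches in 1 and a CRE in 0. These are matches of letters, and no binding was measured.

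Of the SPRED genes, SPRED1 was called lower in shAPC and SPRED2 was called in neither arm. SPRED1 (chr15:38252326-38357249, plus strand, ENSG00000166068), an adaptor that carries neurofibromin to RAS, was 67.8, 63.7 and 74.2 TPM in shNT1 and 62.8, 58.1 and 55.8 TPM in shAPC. Every shAPC library was below every shNT1 library, and SPRED1 was called at -0.21 (SE 0.07, limma adjusted p = 0.0489). The call was lost without shNT1 replicate 1 (-0.22, limma adjusted p = 0.0956), shNT1 replicate 3 (-0.16, 0.116), shAPC replicate 2 (-0.21, 0.127) or shAPC replicate 3 (-0.18, 0.162). It was also lost with no filter (-0.21, limma adjusted p = 0.105), quantile normalization (-0.14, 0.0892), no variance trend (-0.21, 0.0893) or a pseudocount of 0.1 (-0.22, 0.0506). SPRED2 (chr2:65310851-65432637, minus strand, ENSG00000198369), its paralog, was 64.1, 61.4 and 63.3 TPM in shNT1 and 59.2, 55.2 and 52.5 TPM in shAPC. These groups did not overlap either, but the value of -0.18 (SE 0.06) missed the threshold (limma adjusted p = 0.0539). Without shAPC replicate 1 it was -0.22 (limma adjusted p = 0.0297). In the CTNNB1 arm SPRED1 had a log2 fold change of 0.10 (95% confidence interval -0.06 to 0.26) and SPRED2 one of 0.10 (-0.02 to 0.22), neither called. The libraries overlapped for both genes, with SPRED1 at 59.3 to 64.7 TPM in GFP and 60.5 to 72.5 TPM in CTNNB1, and SPRED2 at 54.4 to 56.9 and 56.8 to 62.8 TPM.

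The ETS factors were called in neither arm. ETV4 (chr17:43527844-43579620, minus strand, ENSG00000175832) was 50.7, 48.7 and 53.3 TPM in GFP and 52.8, 57.7 and 55.9 TPM in CTNNB1 (log2 fold change 0.12, 95% confidence interval -0.00435 to 0.25, limma adjusted p = 0.147). Without CTNNB1 replicate 1 its value was 0.16 (limma adjusted p = 0.0398). In the hairpin arm ETV4 was 62.3, 63.6 and 58.5 TPM in shNT1 and 60.3, 59.4 and 58.3 TPM in shAPC, a log2 fold change of -0.05 (95% confidence interval -0.17 to 0.07) that turned to 0.02 under quantile normalization. ETV5 (chr3:186046308-186110318, minus strand, ENSG00000244405) was 43.7, 41.7 and 40.8 TPM in GFP and 43.1, 43.4 and 40.3 TPM in CTNNB1. Its libraries overlapped there, and the log2 fold change of 0.01 (95% confidence interval -0.12 to 0.13) was -0.07 under median-ratio scaling. ETV5 was 47.6, 46.0 and 45.3 TPM in shNT1 and 52.6, 47.2 and 46.2 TPM in shAPC (0.07, 95% confidence interval -0.07 to 0.21, limma adjusted p = 0.458). Exons of ETV4 overlap those of DHX8 on the opposite strand and exons of ETV5 overlap those of DGKG on the same strand, so reads of these genes may be shared.

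**Figure D2:**
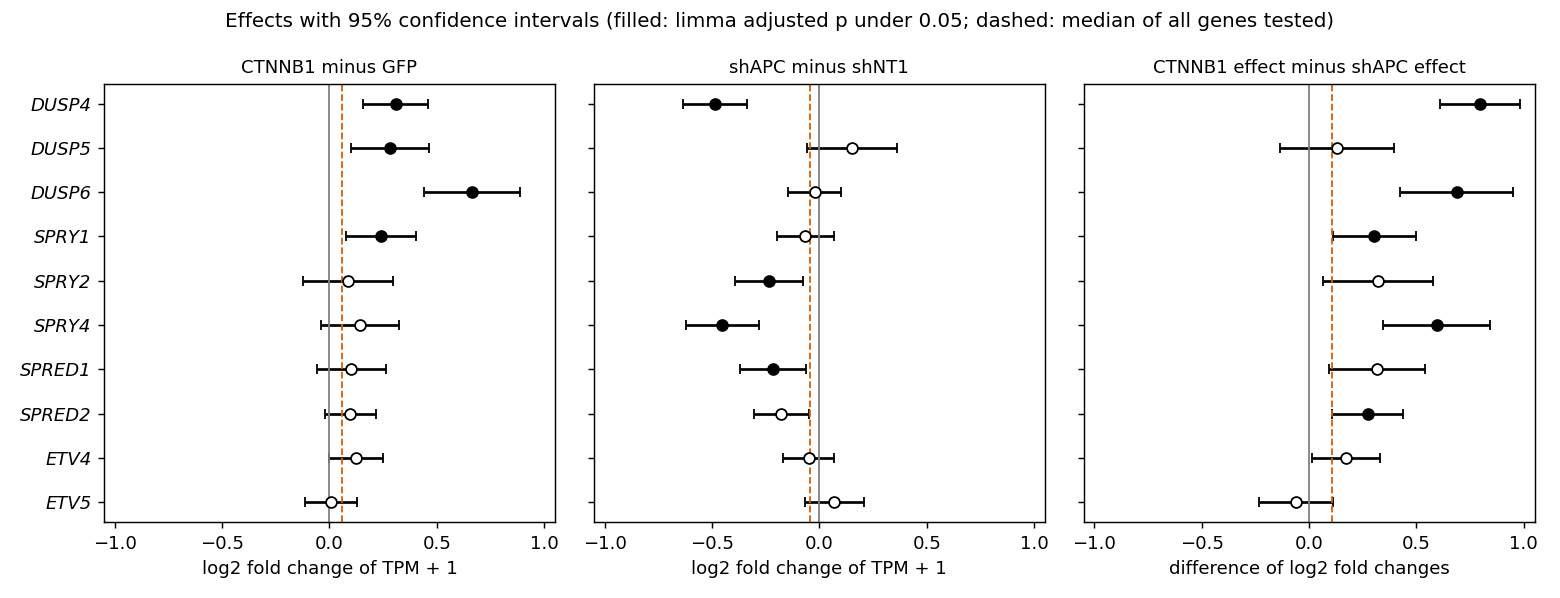
Log2 fold change of TPM + 1 in each arm and the difference between the arms, with 95% confidence intervals from limma (filled points: limma adjusted p under 0.05; dashed line: median of all genes tested, 0.06, -0.04 and 0.11). The 4 called genes of the first panel lie above 0 and the 4 of the second below 0, and DUSP4 is called in both.

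The effect of CTNNB1 was then tested against that of shAPC in 1 fit of the 12 libraries. The difference (CTNNB1 minus GFP, less shAPC minus shNT1) was called for 5 of the 10 genes, all positive, where 13.3% of the 11741 genes tested were called positive, 2.76% negative and 16.1% in either direction. The median difference was 0.31 for the 10 genes and 0.11 for all genes tested, and median-ratio scaling moved the latter to 0.00393. Under that scaling 1436 of the 11741 genes were called, 54.7% of them positive. Related lists, described below, mostly went the same way. Of 23 cascade genes 11 were called, all positive (median 0.28), and of 8 inhibitors outside the families 3, all positive (0.33). Of 13 other ERK output genes 3 were called, all positive (0.24), and of 5 other MAPK phosphatases 0 (0.03). Under median-ratio scaling 6 cascade genes were called positive and 1 negative. The inhibitors then had 2 positive calls, the other output genes 1 and the other phosphatases 0, with 0 negative in each. DUSP4 differed by 0.80 (SE 0.09, limma adjusted p = 9.43e-05), DUSP6 by 0.69 (SE 0.12, limma adjusted p = 0.00265) and SPRY4 by 0.59 (SE 0.12, limma adjusted p = 0.0044). These 3 kept their calls under median-ratio scaling, at 0.69, 0.58 and 0.49, and when any single library was left out. SPRY1 (0.30, SE 0.09, limma adjusted p = 0.0361) and SPRED2 (0.27, SE 0.08, limma adjusted p = 0.029) did not keep theirs under that scaling, at 0.20 (limma adjusted p = 0.224) and 0.16 (0.0887). With 1 library left out at a time, SPRY1 lost its call in 9 of 12 fits (values from 0.24 to 0.34, limma adjusted p up to 0.0838) and SPRED2 in 6 of 12 (0.23 to 0.32, limma adjusted p up to 0.0772). SPRED2 lost it without GFP replicate 2 or 3, shNT1 replicate 1 or 3, or shAPC replicate 2 or 3, and SPRY1 kept it only without GFP replicate 1, CTNNB1 replicate 1 or shAPC replicate 2. The difference was 0.32 for SPRED1 (limma adjusted p = 0.0531), 0.32 for SPRY2 (0.0837), 0.17 for ETV4 (0.13), 0.13 for DUSP5 (0.49) and -0.06 for ETV5 (0.623). SPRED1 was called without CTNNB1 replicate 3 (0.38, limma adjusted p = 0.0275), shNT1 replicate 2 (0.37, 0.039) or shAPC replicate 1 (0.36, 0.0361), and SPRY2 without CTNNB1 replicate 3 (0.42, 0.0181).

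The controls of the arms themselves stood at different levels for most of these genes. The shNT1 mean was above the GFP mean in 9 of the 10 genes, DUSP5 being the exception, and in 64.0% of all genes tested. The shNT1 mean was the highest of the 4 group means in 8 of the 10 genes and in 26.4% of all genes, and the GFP mean was the lowest in 7 of the 10 and in 41.1% of all genes. The means of the perturbed groups were closer to each other than those of the controls in 8 of the 10 genes, against 49.2% of all genes. In DUSP6, SPRY1, SPRY2 and ETV4 the means ran from shNT1 through shAPC and CTNNB1 down to GFP, with some neighbouring groups overlapping. DUSP4 had another order, with shAPC lowest. Its means were 13.4 TPM in shNT1, 11.97 TPM in CTNNB1, 9.47 TPM in GFP and 9.26 TPM in shAPC, the last 2 overlapping. DUSP6 was 1.65 times as high in shNT1 as in GFP and SPRY4 was 1.48 times as high. Vector, harvest time and doxycycline differ between the controls and cannot be told apart here.

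Likeness of pattern was described by Pearson's r of log2(TPM + 1) over the 12 libraries, among genes averaging 5 TPM or more. The 12 points fall into 4 groups, so r mostly follows the group means. DUSP4 was most like TPM1, a tropomyosin (r = 0.964; means of 64.9, 77.3, 87.0 and 66.5 TPM in GFP, CTNNB1, shNT1 and shAPC), and APOL6 (r = 0.961). DUSP6 was most like THSD4 (r = 0.985) and MTURN (r = 0.981), both lowest in GFP, at 3.14 and 8.71 TPM. For SPRY4 the nearest genes were KDELR3 (r = 0.969) and IQGAP3 (r = 0.964), both highest in shNT1, at 56.3 and 29.3 TPM. SPRY2 was nearest to ELOVL7 (r = 0.963) and BIRC2 (r = 0.961), and SPRY1 to GM2A (r = 0.955) and TMSB4X (r = 0.946). SPRED1 was nearest to SPOPL (r = 0.966) and DIAPH2 (r = 0.957), and SPRED2 to MBNL3 (r = 0.958) and FAM84B (r = 0.946). ETV4 was nearest to TSC22D3 (r = 0.954) and ALAD (r = 0.946), and ETV5 to UBE2CP5 (r = 0.953), a pseudogene symbol whose reads may be shared with its parent gene, and NLK (r = 0.938). DUSP5 had the weakest nearest genes, PSMG1 (r = 0.895) and SMPDL3B (r = 0.875). Among the 10 genes themselves SPRED1 and SPRED2 were the most alike (r = 0.906) and DUSP5 and SPRY2 the least (r = -0.381).

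Of the other members of these families, DUSP16 and ETV1 were called. Of 7 other MAPK phosphatases, 5 were tested in each arm, and DUSP16, which acts mainly on JNK and p38, was called higher in both. Over all genes tested 16.3% were called higher with CTNNB1 and 7.24% with shAPC. The median of the 5 was -0.05 with CTNNB1 and 0.01 with shAPC. With CTNNB1, DUSP1 (-0.05), DUSP2 (-0.27) and DUSP7 (-0.07) lay below 0 and DUSP8 (0.15) above, none called. DUSP16 rose from 14.7 ± 0.837 to 23.3 ± 2.31 TPM with CTNNB1 (log2 fold change 0.63, limma adjusted p = 0.000504) and from 18.3 ± 0.713 to 27.2 ± 1.71 TPM with shAPC (0.55, limma adjusted p = 0.00036; SD, n = 3 each). DUSP10 was under 1 TPM in every group mean and DUSP9 was listed at 0 in every library. Of SPRY3, SPRED3 and ETV1, only ETV1, the third PEA3 factor, was tested. ETV1 rose from 2.08 ± 0.298 to 3.10 ± 0.339 TPM with CTNNB1 (0.41, limma adjusted p = 0.0239), a call lost under quantile normalization (0.28, limma adjusted p = 0.0721), and was 4.16 TPM in shNT1 and 4.58 TPM in shAPC, not called.

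Other transcripts commonly read as ERK output went in both directions. Of 14 such genes 13 were tested. In the CTNNB1 arm 3 were called higher and 4 lower, with a median of -0.09, and in the shAPC arm 2 were higher and 6 lower, with a median of -0.19. Over all genes tested the called shares were 16.3% higher and 7.16% lower with CTNNB1, and 7.24% higher and 14.9% lower with shAPC. PHLDA1, a cytoplasmic adaptor of ERK output signatures, rose in both arms, from 47.8 to 79.9 TPM with CTNNB1 (0.72, limma adjusted p = 0.000267) and from 65.8 to 102 TPM with shAPC (0.63, limma adjusted p = 3.46e-05). CCND1 (cyclin D1), which is also a WNT target, rose from 115 to 170 TPM with CTNNB1 (0.57, limma adjusted p = 5.83e-05) and from 129 to 151 TPM with shAPC (0.22, limma adjusted p = 0.0105). PLAUR, the urokinase receptor, fell in both arms, from 48.1 to 33.0 TPM (-0.53, limma adjusted p = 0.000197) and from 47.2 to 27.0 TPM (-0.79, limma adjusted p = 0.00013). In shAPC, FOS, an immediate early transcription factor, fell from 29.3 to 17.1 TPM (-0.74, limma adjusted p = 0.000161) and HBEGF, a ligand of EGFR, from 14.8 to 8.32 TPM (-0.74, limma adjusted p = 0.00213). With CTNNB1, HBEGF was also called lower, from 11.8 to 8.80 TPM (-0.38, limma adjusted p = 0.00619), and FOS was not called.

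Transcripts of the cascade itself were called lower more often than higher in shAPC. Of 23 genes from receptors to ERK and its substrates, 9 were called lower and 0 higher, where 14.9% of all genes tested were lower and 7.24% higher. Their median log2 fold change was -0.13, and that of all genes was -0.04. Under median-ratio scaling 9 were lower and 1 higher, and under quantile normalization 5 were lower and 1 higher. Over all genes 2853 and 2712 of 11834 were called under these settings, 44.3% and 49.4% of them higher. MAP2K1, which encodes the ERK kinase MEK1, fell from 107 ± 5.32 to 65.3 ± 3.39 TPM (SD, n = 3 each; log2 fold change -0.70, limma adjusted p = 4.55e-05). EGFR fell from 33.4 to 23.8 TPM (-0.48, limma adjusted p = 0.00577) and HRAS from 38.1 to 28.5 TPM (-0.41, limma adjusted p = 0.0021). With CTNNB1, EGFR was instead called higher, from 29.4 to 34.8 TPM (0.23, limma adjusted p = 0.0200), and MAP2K1 and HRAS were not called. In the CTNNB1 arm 6 of the 23 were called higher and 1 lower, where 16.3% of all genes were higher and 7.16% lower. The counts were 2 higher and 3 lower under median-ratio scaling, and 3 higher and 1 lower under quantile normalization. Over all genes 2715 and 2548 of 11624 were called under these settings, 46.2% and 52.9% of them higher. KSR1, a scaffold of the cascade, rose by 36.4% from a GFP mean of 1.98 TPM (0.31, limma adjusted p = 0.0362), and CBL, which marks receptors for degradation, from 16.6 to 21.0 TPM (0.31, limma adjusted p = 0.0358). Neither call held under median-ratio scaling (limma adjusted p = 0.0566 and 0.0561). ERBB2 rose from 49.3 to 60.9 TPM (0.30, limma adjusted p = 0.00631) and was also called there.

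Inhibitors of the cascade outside these families were also measured. Of 8 such genes, 5 were called higher and 0 lower with CTNNB1, and 1 higher and 2 lower with shAPC. The shares over all genes were 16.3% higher and 7.16% lower with CTNNB1, and 7.24% higher and 14.9% lower with shAPC. Under median-ratio scaling 3 were higher and 0 lower with CTNNB1, and the counts with shAPC were 1 and 2 again. That scaling called 2715 of all 11624 genes with CTNNB1 (46.2% higher) and 2853 of 11834 with shAPC (44.3% higher). LRIG1, a membrane protein that promotes the removal of ERBB receptors, rose in both arms, from 14.4 to 22.8 TPM (0.62, limma adjusted p = 0.000341) and from 17.3 to 24.4 TPM (0.48, limma adjusted p = 0.0021). RASAL2 rose from 10.5 to 13.7 TPM with CTNNB1 (0.36, limma adjusted p = 0.0169). RASA2 rose from 8.10 to 10.0 TPM with CTNNB1 (0.27, limma adjusted p = 0.0306), a call lost under quantile normalization (limma adjusted p = 0.0705), and fell from 10.9 to 8.80 TPM with shAPC (-0.28, limma adjusted p = 0.0217). RASA1, like both of these a RAS GTPase-activating protein, fell from 65.9 to 47.7 TPM with shAPC (-0.46, limma adjusted p = 0.00086).

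**Figure D3:**
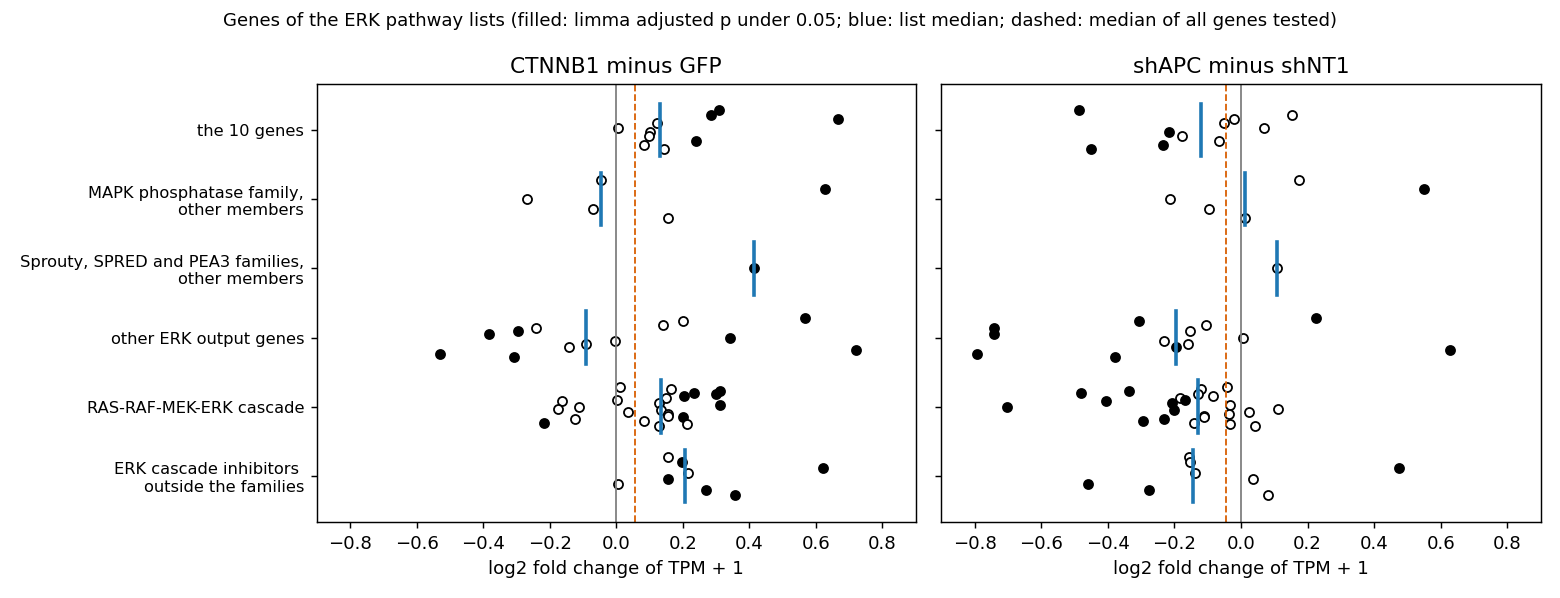
Log2 fold change of TPM + 1 for every tested gene of the ERK pathway lists, CTNNB1 against GFP on the left and shAPC against shNT1 on the right (filled points: limma adjusted p under 0.05; blue bar: list median; dashed line: median of all genes tested). The median of the 10 genes is 0.13 on the left and -0.12 on the right, and that of the 23 cascade genes is 0.13 and -0.13.

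The authors' own comparisons were deposited for both arms. In the authors' deposited table for CTNNB1, 2 of the 10 genes had an adjusted p under 0.05, DUSP6 (log2 fold change 0.61, adjusted p = 0.0178) and DUSP4 (0.27, adjusted p = 0.00807). In the authors' deposited table for APC there were 3, DUSP4 (-0.49, adjusted p = 0.00161), SPRY4 (-0.43, adjusted p = 0.00936) and SPRY2 (-0.21, adjusted p = 0.0441). All 5 of these calls were also made here. DUSP5 (adjusted p = 0.137 in the authors' deposited table) and SPRY1 (0.299) for CTNNB1, and SPRED1 (0.0816) for APC, were called only here. The share of all genes called in the authors' deposited tables is not given here, so the counts of 2 and 3 have no background beside them. The sign in the authors' deposited tables matched in 9 of 10 genes in each arm, the exceptions being ETV5 for CTNNB1 (-0.06) and DUSP6 for APC (0.02).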

How the data were processed

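RNA-seq was done on 12 libraries of HT-29 cells (3 each of GFP, CTNNB1, shNT1 and shAPC). The authors deposited TPM per gene, each library summing to 1000000, and a limma table per comparison with log2 fold changes, p-values and adjusted p-values. STAR 2.7.3a, limma and build hg38 are named per the submitters' processing notes. The quantification tool, the annotation and the authors' model are not given in the sources used here. The sign of the table for APC was taken from APC itself.

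From the TPM, log2(TPM + 1) was fitted with limma 3.58.1 in R 4.3.3, per arm or, for the difference between arms, over all 12 libraries. Genes averaging 1 TPM or more in the fit were kept, variances were moderated with a mean-variance trend, and calls used a Benjamini-Hochberg adjusted p under 0.05. Since 1 is added before the logarithm, changes of low genes are understated. Other settings tried were median-ratio scaling, quantile normalization, adding 0.1 in place of 1, keeping every gene, a minimum mean of 5 TPM, no variance trend, 1 fit of all groups, a replicate block and leaving out each library. The 10 genes and the lists were chosen with earlier results of these data known. All 10 genes are described. Of each other ERK pathway list at most the 3 called genes with the largest change per arm were picked. Some are given with values in the other arm and some only in 1 arm. The 2 most similar genes per member are named too. Also named are WNT check genes, cell type markers, and other family members that were not called or not tested. Gene positions come from GENCODE v29 (GRCh38) and promoter windows from RefSeq (GRCh38.p14).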

Additional observations from a re-analysis of the deposited data

Results flagged for a closer look

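For 5 of the 10 genes limma's test of the difference itself (CTNNB1 effect minus shAPC effect, log2) was called, all positive, where 13.3% of all genes tested were called positive and 16.1% in either direction. This was not particular to the 10 genes. Of 23 cascade genes 11 were called, and of 8 inhibitors outside the families 3, all positive. Under median-ratio scaling the cascade had 6 positive calls and 1 negative, the inhibitors 2 positive and the 10 genes 3 positive. That scaling called 1436 of all 11741 genes, 54.7% of them positive. DUSP4 differed by 0.80, being higher in all 3 CTNNB1 libraries than in GFP and lower in all 3 shAPC libraries than in shNT1. DUSP6 differed by 0.69, with GFP the one group whose libraries overlapped no other. SPRY4 differed by 0.59, with effects of 0.14 in the CTNNB1 arm and -0.45 in the shAPC arm. SPRY1 differed by 0.30 and SPRED2 by 0.27, and neither was called under median-ratio scaling. The arms also differed in vector, harvest time and doxycycline, which cannot be told apart from this difference.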

How the results depend on the processing

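Among values of the 10 genes under an alternative, 404 kept their side of the threshold, 56 lost a call, 10 gained one and 0 reversed a call. Without a filter 2 of the 10 genes were called in the CTNNB1 arm and 2 in the shAPC arm, against 2257 of 17849 and 1929 of 17968 over all genes. With median-ratio scaling and with quantile normalization 2 were called in the CTNNB1 arm and 3 for the difference, and in the shAPC arm 4 with the first and 3 with the second. Over all genes these settings called 2715 and 2548 of 11624 in the CTNNB1 arm, 46.2% and 52.9% of them higher. In the shAPC arm they called 2853 and 2712 of 11834 (44.3% and 49.4% higher). For the difference they called 1436 and 1402 of 11741 (54.7% and 56.5% positive). Leaving out 1 library gave 1 to 5 called genes in the CTNNB1 arm, 2 to 4 in the shAPC arm and 3 to 6 for the difference. The lowest counts of the 10 genes came without GFP replicate 2 in the CTNNB1 arm (1, and 2 without GFP replicate 3 or CTNNB1 replicate 2), without shNT1 replicate 3, shAPC replicate 2 or shAPC replicate 3 in the shAPC arm (2 each), and without GFP replicate 2 or 3, shNT1 replicate 1 or 3, or shAPC replicate 3 for the difference (3 each). Over all genes leaving out 1 library gave 1499 to 3190, 1484 to 2252 and 995 to 2143 calls, against 2730, 2615 and 1885 with all libraries. The lowest of these came without GFP replicate 2, shAPC replicate 3 and GFP replicate 2. Counts over 1.5 times lower also came without GFP replicate 1 (1617), GFP replicate 3 (1705) or CTNNB1 replicate 2 (1760) in the CTNNB1 arm, without shAPC replicate 2 (1646) in the shAPC arm, and without GFP replicate 1 (1092), shAPC replicate 2 (1246) or shAPC replicate 3 (1021) for the difference. Calls that were higher made up 69.5% in the CTNNB1 arm as deposited and 46.2% under median-ratio scaling, 32.8% and 44.3% in the shAPC arm, and 82.8% and 54.7% for the difference. Replicate numbers are shared between groups in the titles, with no statement of what they mean. Deviations of same-numbered libraries correlated by 0.13 on average in the CTNNB1 arm and by -0.12 in the shAPC arm, and each library correlated best with its own number in 6 of 6 and 0 of 6 cases. Adding the replicate block left 3 genes called in the CTNNB1 arm, 2 in the shAPC arm (SPRY4 and DUSP4) and 4 for the difference. SPRY1 was the gene that lost its call in the CTNNB1 arm and for the difference. Over all genes the block gave 2895, 1767 and 1145 calls. Where a cause is not plain from the alternative itself, the cause was not tested. TPM keeps no depth, so no detection limit can be given.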
